A study of Mus musculus with 435 samples.

Results

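Fkbp11, Ndp, Tmem238l, Kcnd2, Cda, Csgalnact2 and Ppp2r2d are 7 genes whose liver signal was higher on a high-fat than on a low-fat diet in C57 mice. They were taken by gene symbol from the array's probe-to-gene table, where 8 of 17280 probe positions, which carry 13409 distinct symbols, bear these names. Fkbp11 has 2 probes, numbered 15021 and 9006, and each of the other genes has 1. The genes were chosen by their measured rise in C57, their high-fat minus low-fat difference over weeks 1 to 11, so every C57 diet difference of theirs is given as a description without a test. Tests were run on the A/J mice and the arrays of week 0, which that choice did not use, and on the course over weeks. In C57 that course comes from the same weekly means that chose the genes, so its p-values are not free of the choice.

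The series holds 435 arrays of liver total RNA from C57 and A/J mice, both inbred strains, fed a high-fat or low-fat diet, in 44 groups of strain, diet and week. On every array the liver RNA carried Cy5, and an RNA pool from 10 tissues of C57 mice, with liver among them, carried Cy3, so each value is the ratio of liver over that pool. The groups used here are C57 high-fat (88 arrays), C57 low-fat (87 arrays), A/J high-fat (87 arrays) and A/J low-fat (88 arrays) at weeks 1, 3, 4, 5, 6, 7, 9, 10 and 11, and 39 arrays of week 0, all set against the same pool. Neither a mouse's age nor its substrain is given here, and which arrays share a mouse is not stated, so the p-values measure the spread between weeks or between arrays, which may be technical.

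Week 8 was left out because 28 of its arrays correlated below 0.15 with the median of all arrays, and 4 arrays of other weeks were left out for the same reason. In 2 pairs of A/J high-fat arrays the values were identical, and each pair was counted as 1 array. The arrays kept measured between 2183 and 14920 probes, with a median of 11357.5, and those of week 0 between 194 and 10027, with a median of 5007. Values below are log2 ratios, each array centred on its own median, so that 0 is the array's median ratio of liver over pool. All 11 hepatocyte markers that were tested lay above 0 and all 5 skeletal muscle markers below it. By the mean of the 4 strain and diet levels, 1 of 3 kidney, 1 of 4 brain and 0 of 2 testis markers lay above 0. The same held for 0 of 3 macrophage, 1 of 2 endothelial, 2 of 3 stellate and 0 of 3 bile duct markers. No adipose marker was tested. Because whole liver was used, more cells of a type and more RNA per cell cannot be told apart. Ratios against the pool were not compared between genes.

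Fkbp11 encodes a peptidyl-prolyl isomerase of the endoplasmic reticulum that helps newly made secretory proteins fold and is known from secretory tissues. Ndp encodes norrin, a secreted ligand of the receptor pair Fzd4 and Lrp5 that switches on canonical Wnt signalling. Csgalnact2 encodes a Golgi transferase that adds N-acetylgalactosamine in chondroitin sulfate synthesis. Kcnd2 encodes the pore-forming subunit of a voltage-gated potassium channel best known from brain and heart. Cda encodes cytidine deaminase, which turns cytidine into uridine in pyrimidine salvage, and Ppp2r2d encodes a regulatory subunit that steers protein phosphatase 2A to its substrates. Tmem238l is named for its likeness to a transmembrane protein gene, and RefSeq lists it as a long non-coding RNA.

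The signals of Fkbp11 probe 15021, Csgalnact2 and Tmem238l moved together across groups, as described further on, and their promoters are shown for that reason. Each run holds the 250 bases before an annotated transcript start, 5′ to 3′, from RefSeq on GRCm38.p6. Capitals mark CCACG, a part of the endoplasmic reticulum stress element, and a run without capitals holds none of the motifs searched.
Fkbp11, chr15:98728199-98728448, minus strand: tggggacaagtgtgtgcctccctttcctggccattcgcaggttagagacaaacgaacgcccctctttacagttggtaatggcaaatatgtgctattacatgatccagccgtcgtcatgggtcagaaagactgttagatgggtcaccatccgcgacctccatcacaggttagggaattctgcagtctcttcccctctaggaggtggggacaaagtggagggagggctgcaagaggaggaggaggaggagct
Csgalnact2, chr6:118139141-118139390, minus strand: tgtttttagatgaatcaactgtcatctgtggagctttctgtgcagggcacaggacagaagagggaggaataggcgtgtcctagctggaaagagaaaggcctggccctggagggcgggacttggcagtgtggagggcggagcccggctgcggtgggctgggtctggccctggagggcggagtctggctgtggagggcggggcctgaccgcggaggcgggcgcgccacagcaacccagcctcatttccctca
Tmem238l, chr11:66956292-66956541, plus strand: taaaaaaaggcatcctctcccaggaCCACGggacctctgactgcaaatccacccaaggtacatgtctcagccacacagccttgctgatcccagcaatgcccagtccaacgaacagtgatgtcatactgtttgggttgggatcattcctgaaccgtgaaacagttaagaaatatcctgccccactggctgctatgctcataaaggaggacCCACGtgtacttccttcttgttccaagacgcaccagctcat
All 7 genes matched the promoter table, with 12 windows of 250 bases before and 50 bases after a start. On both strands, CCACG was in windows of 3 genes (Cda, Fkbp11 and Tmem238l) and in 32.8% of all 32851 windows. CCAAT, the other part of the same element, was in windows of 3 genes (Fkbp11, Ppp2r2d and Tmem238l) and in 37.4% of all windows. In Fkbp11, both were found at a second start further inside the gene. CTTTGAT, which Tcf and Lef factors read, was in 1 window of Tmem238l and in 3.73% of all windows. TGACGTGG (Xbp1), AGGTCA (a nuclear receptor site) and TCACNCCAC (Srebp1) were in none of the 12 windows, against 0.676%, 16.3% and 1.24% of all windows. The matches describe these letters only and name no factor at work.

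In C57 mice the high-fat means of 7 of the 8 probes lay 1.23-fold to 1.55-fold above the low-fat means over 9 weeks, and the other Fkbp11 probe lay below. In the same contrast 0.236% of the 7195 probes tested passed an adjusted p of 0.05 (limma on weekly means, Benjamini-Hochberg), 0.167% with a higher and 0.0695% with a lower value on high-fat. The genes were chosen among the higher ones, so nothing is read from their own place there. For the choice itself, and with no test read from it, the values nearest inside that limit belonged to Csgalnact2, Ppp2r2d and Kcnd2, with differences of 0.32, 0.30 and 0.43. Nearest outside it lay Cldn9, Apoc3 and Entpd7, with 0.31, 0.33 and 0.47.

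Among the genes of the secretory route, Fkbp11 probe 15021 ran from 0.06 to 4.98 with a median of 1.87 over 83 C57 high-fat arrays. It ran from -0.69 to 3.92 with a median of 1.24 over 75 C57 low-fat arrays. The weekly means averaged 1.93 ± 0.51 on high-fat and 1.30 ± 0.35 on low-fat (SD, n = 9 weeks each), a difference of 0.63 ± 0.12 (SE) or 1.55-fold. It was higher on high-fat in 8 of 9 weeks, by 1.11 at week 5, 1.10 at week 6 and 1.06 at week 11, and differed by -0.08 at week 3. The arrays of the 2 diets overlapped in every week, and 64 of 83 high-fat arrays (77.1%) lay above the low-fat median of their week.

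Ndp, the Wnt ligand, ran from -1.13 to 2.73 with a median of 0.97 over 83 C57 high-fat arrays and from -2.95 to 2.39 with a median of 0.50 over 80 C57 low-fat arrays. The weekly means averaged 0.99 ± 0.28 on high-fat and 0.44 ± 0.17 on low-fat (SD, n = 9 weeks each), a difference of 0.55 ± 0.10 (SE). High-fat was higher in all 9 weeks, by 0.86, 0.36, 0.33, 0.12, 0.14, 0.45, 0.94, 0.95 and 0.80 from week 1 to week 11. The gap was thus widest at week 1 and at weeks 9 to 11 and narrowest at weeks 5 and 6, where Fkbp11 probe 15021 and Kcnd2 had their widest. In 8 of 9 weeks the high-fat mean lay above every low-fat weekly mean, while single arrays overlapped in each week.

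Csgalnact2, the chondroitin transferase, averaged 0.72 ± 0.27 in C57 high-fat and 0.40 ± 0.18 in C57 low-fat livers (SD, n = 9 weeks each), a difference of 0.32 ± 0.06 (SE). Single arrays ran from -0.00 to 1.89 on high-fat and from -1.49 to 1.43 on low-fat, with medians of 0.62 and 0.47 over 83 and 79 arrays. High-fat was higher in 9 of 9 weekly means, between 0.04 at week 3 and 0.54 at week 6, yet only 52 of 83 high-fat arrays (62.7%) lay above the low-fat median of their week, the smallest share among the 7 probes that were higher. With group medians in place of means the difference was 0.22. Low single arrays on the low-fat diet, at weeks 1, 3 and 4, are listed at the end.

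Kcnd2, the potassium channel gene, ran from -1.21 to 1.52 with a median of 0.48 over 88 C57 high-fat arrays and from -1.67 to 0.94 with a median of 0.05 over 87 C57 low-fat arrays. The weekly means averaged 0.39 ± 0.54 on high-fat and -0.04 ± 0.38 on low-fat (SD, n = 9 weeks each), a difference of 0.43 ± 0.09 (SE). The high-fat mean was higher by 0.27, 0.11, 0.31, 0.74, 0.77, 0.39, 0.30, 0.68 and 0.34 from week 1 to week 11. At week 5 every high-fat array (0.50 to 1.41) lay above every low-fat array (-0.40 to 0.39, 10 arrays each), the only probe and week from week 1 on without overlap, in either strain. Kcnd2 was chosen on these C57 values and the share of all probes without overlap was not counted, so nothing is read from it. In all, 73 of 88 high-fat arrays lay above the low-fat median of their week.

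Tmem238l averaged 1.87 ± 0.56 in C57 high-fat and 1.39 ± 0.40 in C57 low-fat livers (SD, n = 9 weeks each), a difference of 0.48 ± 0.09 (SE). Arrays ran from -0.05 to 3.72 on high-fat and from -0.08 to 2.70 on low-fat, with medians of 1.83 and 1.29 over 87 arrays each. High-fat was higher in all 9 weeks, by 0.86 at week 4, 0.73 at week 5 and 0.85 at week 6 but by 0.04 at week 11. Tmem238l depended on the processing: its difference was 0.26 after quantile normalization and 0.18 with all 10 weeks and all arrays. Those settings also took Fkbp11 probe 15021 to 0.45 and 0.34, while Kcnd2 stayed at 0.43 and 0.46.

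Cda, the cytidine deaminase gene, averaged 0.95 ± 0.30 in C57 high-fat and 0.58 ± 0.28 in C57 low-fat livers (SD, n = 9 weeks each). Its difference of 0.36 ± 0.07 (SE) ran between 0.22 at week 11 and 0.57 at week 5. Arrays ran from -0.76 to 2.44 with a median of 0.97 over 85 high-fat arrays and from -0.55 to 1.69 with a median of 0.54 over 86 low-fat arrays. Ppp2r2d averaged 0.47 ± 0.15 on high-fat and 0.17 ± 0.19 on low-fat (SD, n = 9 weeks each), a difference of 0.30 ± 0.06 (SE). Its high-fat arrays ran from -0.75 to 1.32 with a median of 0.47 (n = 86) and its low-fat arrays from -1.07 to 1.35 with a median of 0.17 (n = 87). Both genes were higher on high-fat in 9 of 9 weeks, with arrays of the diets overlapping in each.

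**Figure D1:**
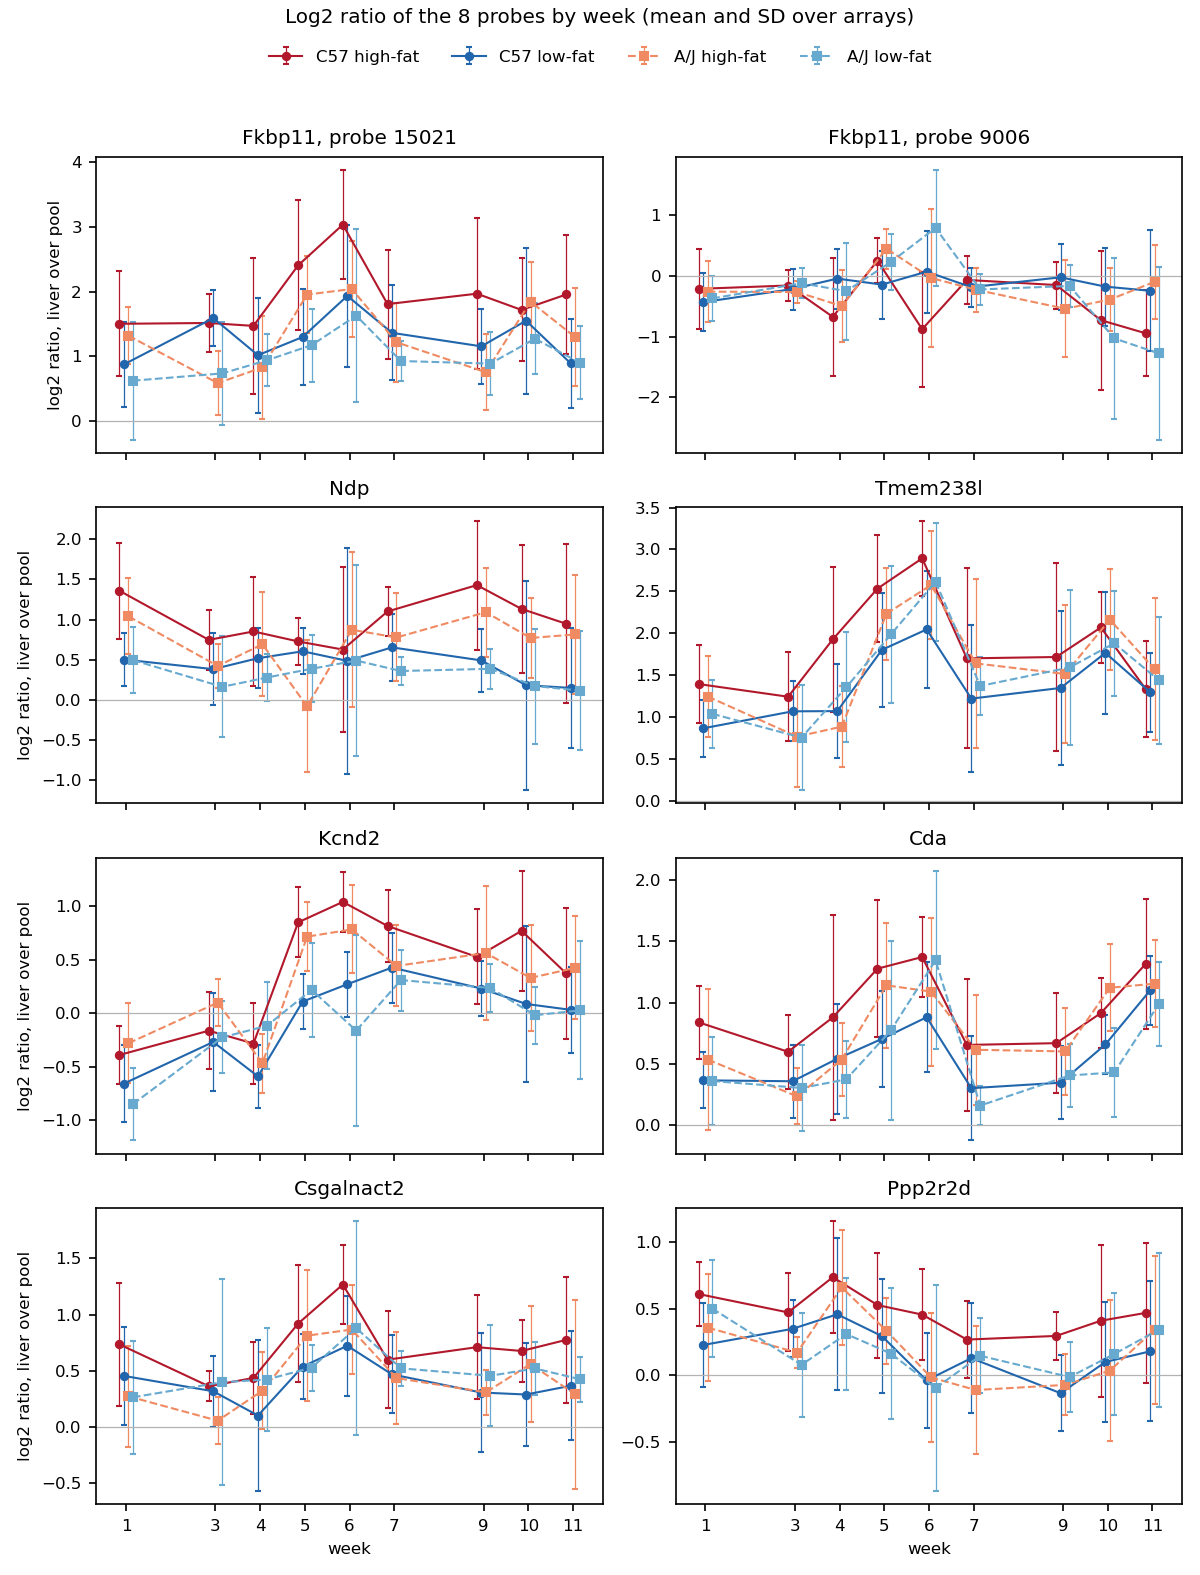
Log2 ratio of liver over pool (y axis) by week (x axis) for each of the 8 probes; points are group means and bars the SD over arrays, red and blue for C57 high-fat and low-fat, orange and light blue for A/J high-fat and low-fat. In C57 the high-fat mean of Ndp, Tmem238l, Kcnd2, Cda, Csgalnact2 and Ppp2r2d lies above the low-fat mean in 9 of 9 weeks, and single arrays overlap in every week but week 5 of Kcnd2. The genes were chosen on these C57 values, and the share of all probes without overlap was not counted.

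The 2 Fkbp11 probes did not give the same picture. Probe 15021 is annotated to the RefSeq mRNA of the gene and probe 9006 to a cDNA record of the same gene. Probe 9006 averaged -0.39 ± 0.42 in C57 high-fat and -0.15 ± 0.15 in C57 low-fat livers (SD, n = 9 weeks each), a difference of -0.24 ± 0.16 (SE), which was -0.13 with group medians and -0.15 without week 6. Arrays of probe 9006 ran from -2.67 to 1.06 with a median of -0.21 over 68 high-fat arrays and from -1.26 to 1.43 with a median of -0.24 over 71 low-fat arrays. Its high-fat mean was higher in 4 of 9 weeks, so the rise of Fkbp11 in C57 rests on probe 15021 alone. The gap between the probes was widest at week 6 in C57, where probe 15021 differed by 1.10 and probe 9006 by -0.95.

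Across the 36 group means the Fkbp11 probes correlated at Pearson 0.09 and Spearman 0.26, and over the 260 arrays that measured both at -0.09 and -0.08. Within a strain and diet, over 9 weekly means, Pearson was -0.14 in C57 high-fat, 0.54 in C57 low-fat, 0.64 in A/J high-fat and 0.42 in A/J low-fat livers. These are descriptions, since both probes share the arrays, the centring and the week. Probe 9006 was also measured less often, on 281 of 350 arrays against 308 for probe 15021.

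Weak agreement between probes of a gene was common on this array. Among 228 genes with exactly 2 tested probes, Fkbp11 among them, the median Pearson correlation over the 36 group means was -0.00, with quartiles of -0.28 and 0.28. In correlation Fkbp11 was thus near the middle, above 133 of them (58.3%). In mean level it was not: its 2 probes lay 1.64 apart, against a median gap of 0.39. Only 2 genes had a larger gap. Each of the other 6 genes has a single probe, so no second measurement stands beside its values. Across the 228 genes the mean levels of the 2 probes correlated at 0.07. Probe sequences were not used here, so the assignment of each probe to its gene rests on the platform annotation alone and was not checked, and every gene name here carries that limit.

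**Figure D2:**
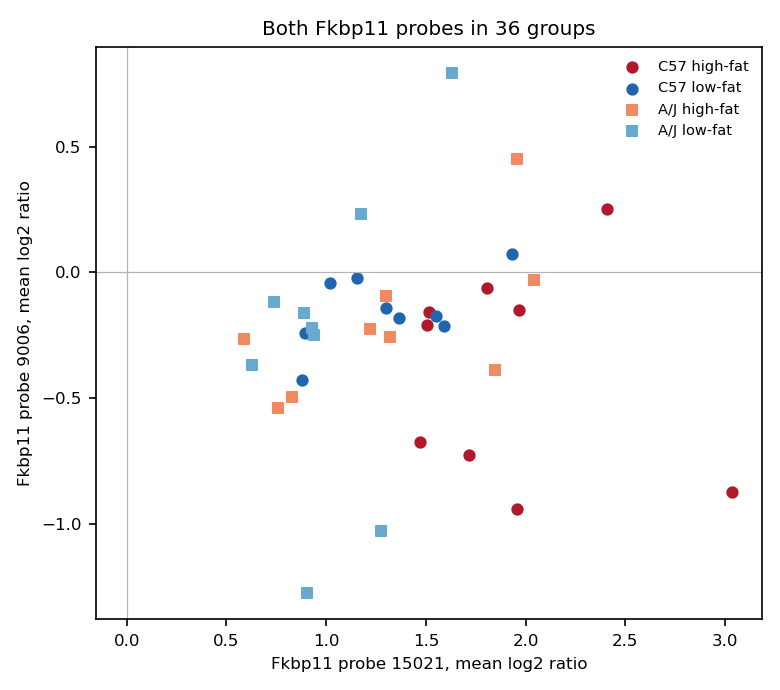
Mean log2 ratio of Fkbp11 probe 15021 (x axis) against that of probe 9006 (y axis) in 36 groups of strain, diet and week; each point is a group. Pearson over the points is 0.09, and the C57 high-fat points reach furthest right without lying higher.

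In A/J mice, whose arrays did not choose the genes, 0 of the 8 probes passed the test of high-fat against low-fat (limma on weekly means, Benjamini-Hochberg over 7195 probes), and 0.0278% of all probes did. Fitted differences were above 0 for 7 of the 8 probes, with a median of 0.14, where the median of all probes was -0.01 and 46.9% were above 0. The unadjusted p was under 0.05 for 4 of the 8, Ndp, Kcnd2, Cda and Fkbp11 probe 15021, and for 385 of the 7195. The spread in this fit comes from both strains and so also from the C57 arrays that chose the genes. With A/J arrays alone the same 4 probes and 376 of the 7195 had an unadjusted p under 0.05, and again 0 of the 8 passed, with adjusted p-values of 0.837 for Ndp and Kcnd2, 0.861 for Fkbp11 probe 15021 and 0.955 for Cda (limma). A test of whether the diet difference itself differs between strains was not made, because it would use the C57 arrays that chose the genes.

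Ndp had the largest A/J difference of the 8 probes, 0.39 ± 0.10 (SE), with an adjusted p of 0.389. Its weekly means averaged 0.71 ± 0.35 in A/J high-fat and 0.32 ± 0.14 in A/J low-fat livers (SD, n = 9 weeks each). High-fat was higher by 0.55, 0.26, 0.41, 0.38, 0.42, 0.70, 0.60 and 0.70 at weeks 1, 3, 4, 6, 7, 9, 10 and 11, and differed by -0.47 at week 5, where 8 high-fat arrays ran from -1.79 to 0.60 with a median of 0.19. Without week 5 the difference was 0.50 and its adjusted p 0.0193 (limma, spread from both strains). That fit leaves out the only week in which high-fat was lower. Of the 9 fits that left out a week, the other 8 did not pass. Over the other fits that left out a week or changed a setting, the adjusted p of Ndp ran up to 1.00, and with single arrays as replicates it was 0.0395. Single arrays ran from -1.79 to 2.46 with a median of 0.78 over 83 high-fat arrays and from -1.36 to 1.91 with a median of 0.38 over 81 low-fat arrays, so the diets overlapped widely.

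Kcnd2 differed by 0.35 ± 0.09 (SE) in A/J, beside 0.43 in C57, with an adjusted p of 0.442. Its weekly means averaged 0.29 ± 0.43 on high-fat and -0.06 ± 0.35 on low-fat (SD, n = 9 weeks each). High-fat was higher in 8 of 9 weeks, by 0.95 at week 6 and 0.57 at week 1, and differed by -0.35 at week 4. With single arrays as replicates the adjusted p of Kcnd2 was 0.00104, and over the fits without a week it ran from 0.0653 to 1.00. The limit given for Ndp on single arrays holds for this 0.00104 too. At week 6 the A/J low-fat group holds a Kcnd2 array at -2.40 whose nearest neighbour is at -0.51. Arrays ran from -1.04 to 1.43 with a median of 0.38 on high-fat and from -2.40 to 1.34 with a median of -0.00 on low-fat (n = 85 each).

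Fkbp11 probe 15021 differed by 0.31 ± 0.12 (SE, adjusted p 0.812) in A/J, with weekly means of 1.32 ± 0.54 on high-fat and 1.01 ± 0.30 on low-fat (SD, n = 9 weeks each). High-fat was higher in 6 of 9 weeks. Fkbp11 probe 9006 differed by 0.06 ± 0.16 (adjusted p 0.996) and swung from -0.82 at week 6 to 1.18 at week 11, so here too the 2 probes went their own ways. Cda differed by 0.21 ± 0.07 (SE, adjusted p 0.787), with means of 0.78 ± 0.35 on high-fat and 0.57 ± 0.38 on low-fat (SD, n = 9 weeks each). It was higher on high-fat in 7 of 9 weeks, and by 0.69 at week 10. The adjusted p of Ndp, Kcnd2 and Cda came down to 0.0623, 0.0623 and 0.0608 after quantile normalization.

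The other 3 genes had A/J differences close to 0. Tmem238l differed by 0.06 ± 0.09 (SE), with 1.62 ± 0.61 in A/J high-fat and 1.56 ± 0.55 in A/J low-fat livers (SD, n = 9 weeks each). Ppp2r2d differed by 0.01 ± 0.06 (SE), with 0.19 ± 0.26 on high-fat and 0.18 ± 0.19 on low-fat. Csgalnact2 differed by -0.05 ± 0.06 (SE), with 0.44 ± 0.27 on high-fat and 0.49 ± 0.17 on low-fat, and was higher on high-fat in 3 of 9 weeks. The adjusted p of all 3 was 0.996. Their C57 differences of 0.48, 0.30 and 0.32 stand beside these without a test between the strains.

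**Figure D3:**
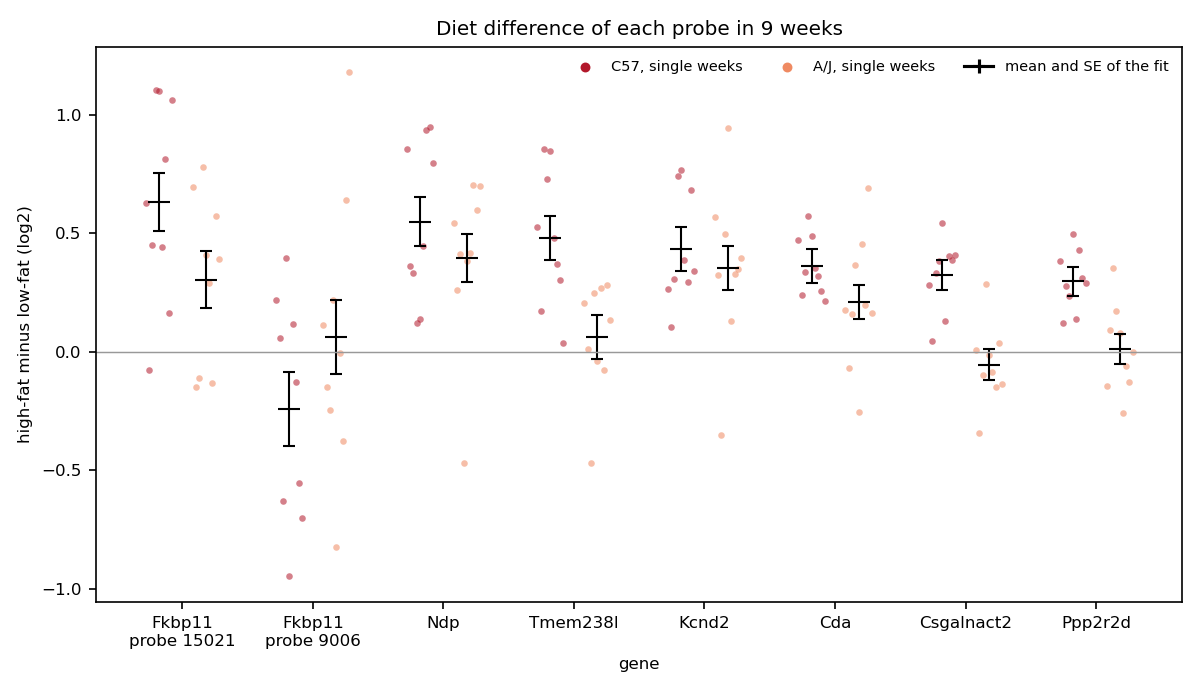
High-fat minus low-fat log2 difference (y axis) of each probe (x axis); dots are the 9 single weeks, red for C57 and orange for A/J, and black bars the fitted mean with its SE. Ndp and Kcnd2 lie above 0 in 8 of 9 A/J weeks, while Tmem238l, Csgalnact2 and Ppp2r2d scatter about 0 in A/J.

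Within single weeks of A/J, 72 tests of the 8 probes (limma on single arrays, Benjamini-Hochberg within each week) gave 0 that passed, where 0.853% of all probes passed at week 4, 0.00684% at week 9, 0.00759% at week 11 and 0% at the other 6 weeks. The lowest adjusted p was 0.322. An unadjusted p under 0.05 was met 10 times, all of them with high-fat higher: 4 times by Kcnd2, 3 times by Ndp, 2 times by Cda and once by Fkbp11 probe 15021. Over all probes it was met by 1059 of 11977 at week 1, 602 of 12682 at week 3 and 2354 of 12312 at week 4. At weeks 5, 6 and 7 it was 744 of 11895, 1177 of 10178 and 749 of 14446. At weeks 9, 10 and 11 it was 841 of 14611, 889 of 12473 and 624 of 13181.

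The order of the 4 levels differed between genes. Fkbp11 probe 15021, Kcnd2, Ndp and Cda ran from C57 high-fat as the highest, through A/J high-fat and C57 low-fat, to A/J low-fat as the lowest. Fkbp11 probe 15021, for example, averaged 1.93, 1.32, 1.30 and 1.01 in that order. Tmem238l had C57 high-fat highest at 1.87 and C57 low-fat lowest at 1.39, with both A/J groups between. Ppp2r2d stood at 0.47 in C57 high-fat livers and at 0.17 to 0.19 in the other 3 groups. Csgalnact2 stood at 0.72 in C57 high-fat livers and at 0.40 to 0.49 in the others, and Fkbp11 probe 9006 was lowest in C57 high-fat livers at -0.39. For each probe, neighbours in the order differed by less than the sum of their SDs over weeks, and the levels of the C57 groups carry the choice of the genes.

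At week 0, for which the labels name the diet group too, fewer probes were measured and neither Fkbp11 probe had 3 arrays in each group. No probe of the array passed in C57 (0% of 6373) or in A/J (0% of 6227) with limma on single arrays and Benjamini-Hochberg adjustment, though 368 and 643 had an unadjusted p under 0.05. Cda in A/J was the largest difference among the genes, 0.76 ± 0.18 (SE), with an adjusted p of 0.223. Its values were 0.50, 0.89, 1.16, 1.19, 1.52 and 1.60 in the 6 A/J high-fat arrays that measured it and -0.02, 0.24, 0.28, 0.39, 0.55, 0.55 and 0.67 in the 7 A/J low-fat arrays. All but the lowest high-fat array lay above every low-fat array. In C57, Cda was 0.02, 0.44 and 0.97 on high-fat and 0.16, 0.25, 0.58, 0.58 and 0.75 on low-fat, a difference of 0.01 ± 0.25 (SE).

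Csgalnact2 at week 0 in C57 differed by 0.31 ± 0.15 (SE, adjusted p 0.873, limma), and its 6 high-fat arrays ran from 0.13 to 0.54 against -0.29 to 0.13 in 4 low-fat arrays, which overlap at that edge. Kcnd2 differed by 0.28 ± 0.17 in C57 and by 0.19 ± 0.14 in A/J (SE), and every array of either diet lay below 0. Tmem238l differed by 0.03 ± 0.23 in C57 and by 0.28 ± 0.17 in A/J, and Ndp by -0.08 ± 0.25 and 0.09 ± 0.31 (SE). Ppp2r2d differed by 0.04 ± 0.25 in C57 and was measured on too few arrays in A/J. In all, 5 of 6 tested probes were above 0 in C57 and 5 of 5 in A/J, and none passed (an unadjusted p under 0.05 was met by 0 in C57 and by 1, Cda, in A/J).

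The strains were compared at week 0 as well, where 1.35% of 5414 probes passed (limma with diet as a term, Benjamini-Hochberg). None of the 5 genes with enough arrays did, and 0 had an unadjusted p under 0.05, against 669 of all probes. C57 minus A/J was 0.26 ± 0.14 for Tmem238l (SE, adjusted p 0.466) and -0.23 ± 0.16 for Cda (adjusted p 0.621). Kcnd2, Ndp and Csgalnact2 differed by 0.06, -0.08 and -0.08.

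**Figure D4:**
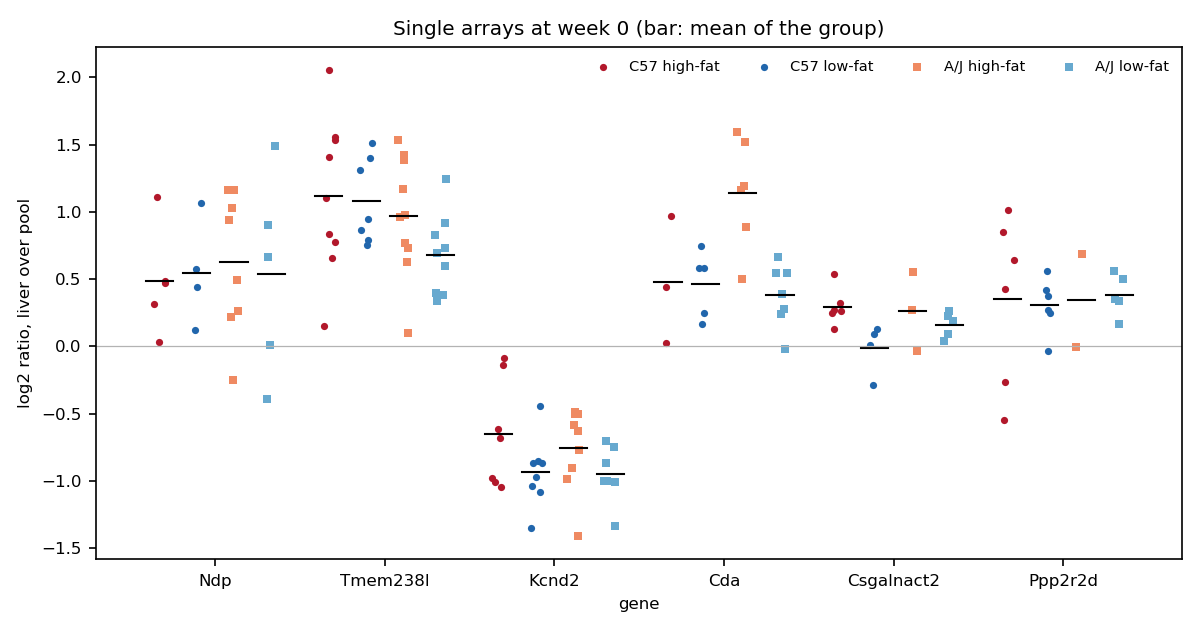
Log2 ratio of liver over pool (y axis) on single arrays of week 0 for the 6 genes with 1 probe (x axis); points are arrays and black bars group means. Cda in A/J high-fat (0.50 to 1.60) sits above A/J low-fat (-0.02 to 0.67) but for 1 array, and all Kcnd2 arrays lie below 0.

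Over the weeks Kcnd2 began below the array median in all 4 groups. Its group mean lay between -0.85 and -0.28 at week 1 and between -0.16 and 1.04 at week 6. A straight line through the 9 weekly means rose by 0.10 ± 0.04 a week in C57 high-fat, 0.08 ± 0.03 in C57 low-fat, 0.07 ± 0.04 in A/J high-fat and 0.07 ± 0.03 in A/J low-fat livers (SE, log2). Adjusted p-values were 0.211, 0.238, 0.308 and 0.309, so none passed (limma, Benjamini-Hochberg over 7195 probes), though the unadjusted p was under 0.05 in all but A/J high-fat. None of the other 7 probes passed or had an unadjusted p under 0.05. Of all 7195 probes, 0.82%, 0%, 0.0278% and 0% passed in these groups, in the order above. An unadjusted p under 0.05 was met by 1452, 1153, 1301 and 1062 of them (limma). Slopes of the 8 probes lay between -0.09 and 0.10 a week. The C57 lines run through the weekly means that chose the genes, so their p-values are not free of that choice.

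Fkbp11 probe 15021, Tmem238l and Csgalnact2 had their highest weekly mean at week 6 in all 4 groups. Fkbp11 probe 15021 reached 3.03 in C57 high-fat, 1.93 in C57 low-fat, 2.04 in A/J high-fat and 1.63 in A/J low-fat livers there. Csgalnact2 reached 1.27, 0.72, 0.87 and 0.88 in the same order, and Tmem238l 2.89, 2.05, 2.58 and 2.62. The arrays of week 6 differed as well: they measured fewer probes than any other of the 9 weeks in each group, with medians of 7764, 8334.5, 9790 and 6648.5. The median hepatocyte marker at week 6 was at 1.63, 1.46, 1.66 and 1.36, above that of any other of the 9 weeks in each group. Whether these array differences play a part in the week 6 peak was not tested.

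Across the 36 group means Fkbp11 probe 15021, Csgalnact2, Tmem238l, Cda and Kcnd2 varied together. Pearson was 0.83 for Fkbp11 probe 15021 and Csgalnact2, 0.80 for Csgalnact2 and Tmem238l, 0.77 for Fkbp11 probe 15021 and Tmem238l and 0.73 for Tmem238l and Cda. Ndp (0.11 to 0.31 with the other 6 genes) and Ppp2r2d (-0.27 to 0.24) stood apart from them. Once the group means were taken out, the 21 pairs of the 7 genes correlated between -0.11 and 0.47 over single arrays, with a median of 0.20. These are descriptions, since all points share the pool, the centring and the week, and the choice of genes with a C57 rise adds a common part.

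**Figure D5:**
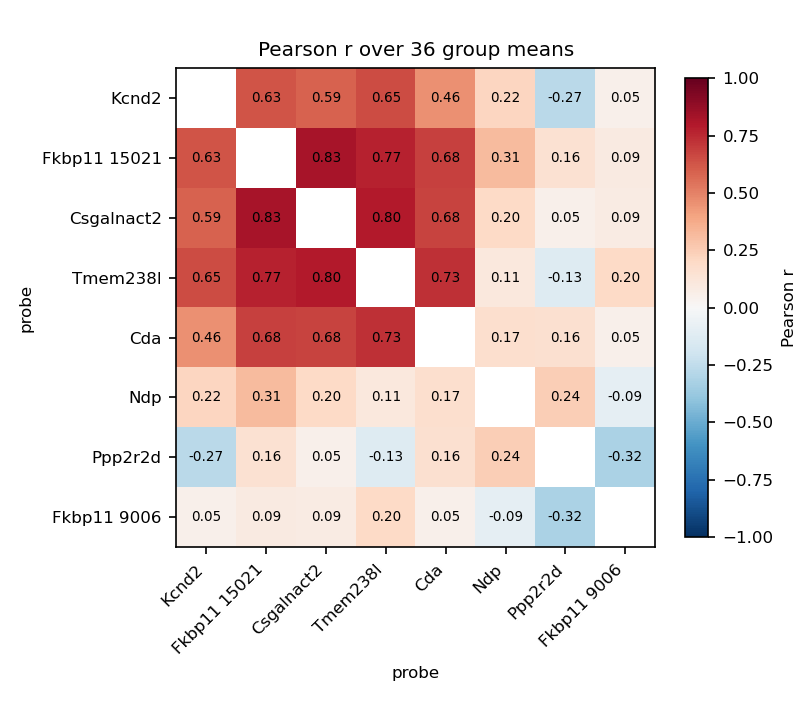
Pearson correlation over 36 group means between the 8 probes (both axes); colour runs from blue at a correlation of minus 1 to red at plus 1. Fkbp11 probe 15021, Csgalnact2, Tmem238l and Cda form a block of 0.68 to 0.83, while Fkbp11 probe 9006 and Ppp2r2d stay between -0.32 and 0.24.

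The spread of values within an array moved with some of these levels. The interquartile range of the log2 ratios was wider on high-fat in 7 of 9 weeks in C57, by 0.06 on average, and in 7 of 9 weeks in A/J, by 0.06. Over the 36 groups its Pearson correlation with the level was 0.72 for Cda, 0.44 for Tmem238l, 0.34 for Csgalnact2 and 0.31 for Fkbp11 probe 15021, and 0.22 or less in size for the others. With the number of probes measured, the same correlation was -0.58 for Cda, -0.48 for Tmem238l, -0.44 for Csgalnact2 and -0.41 for Fkbp11 probe 15021, and 0.16 or less in size for the others. Quantile normalization, which gives every array the same spread, left C57 differences of 0.29 for Cda, 0.26 for Tmem238l, 0.25 for Csgalnact2 and 0.45 for Fkbp11 probe 15021. Hepatocyte markers, which sum to 8.25 to 16.5 over the C57 high-fat weeks and 7.42 to 14.6 over the C57 low-fat weeks, were higher on high-fat for 7 of 11 in C57 with a median of 0.07, and for 3 of 11 in A/J with a median of -0.04. Their sums ran from 4.59 to 15.1 in A/J high-fat and from 6.11 to 13.0 in A/J low-fat weeks, and none of the 11 passed in either strain. The part of spread, measured probes and markers in the diet differences was not tested beyond these values.

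The probes most like each gene over the 36 group means, other than itself, were the following. Kcnd2 was most like Cubn, the intestinal and renal uptake receptor cubilin (Pearson 0.94), then Rpl35 (0.85) and Wnt5b (0.85). Tmem238l was most like Ydjc (0.88), Aldh1a7 (0.86) and Phb2 (0.84). Cda was most like Yif1b (0.84), Slc22a7 (0.83), an organic anion transporter of liver and kidney, and Il3ra (0.83). Fkbp11 probe 15021 was most like Csgalnact2 (0.83), Diaph3 (0.81) and Plxnc1 (0.81), and Csgalnact2 like Fkbp11 probe 15021, Tmem238l (0.80) and Entpd7 (0.76). Ppp2r2d was most like Mthfs (0.76), Vps35l (0.75) and Apoe (0.71).

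Ndp had looser company: Kif21a (0.65), Crabp1 (0.58) and Dnajb4 (0.56). Kif21a, a kinesin motor gene, is the 1 gene among all of these that passed in A/J, with a diet difference of 0.60 (adjusted p 0.0154, limma), beside 0.84 in C57. Of all 7195 probes 0.0278% passed there. Kif21a was picked for its likeness to Ndp over group means that include the A/J groups, so nothing about Ndp is read from it.

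Other genes of the same pathways were taken as 6 lists, and none of their tested genes passed in either strain. Only part of each list could be tested: 24 of 50 genes for secretory folding and stress and 18 of 44 for Wnt. For chondroitin, potassium channels, pyrimidine and protein phosphatase 2A these were 12 of 36, 12 of 32, 18 of 36 and 12 of 28. Nothing is known here of the untested genes. In C57 and A/J, with 49.8% and 46.9% of all probes above 0, the secretory folding and stress list around Fkbp11 had 17 and 11 of 24 genes above 0, with median differences of 0.03 and -0.01. Its highest gene in C57 was Hsp90b1, the chaperone of the endoplasmic reticulum lumen, at 0.26, and its lowest Ssr4, of the translocon, at -0.17. In A/J they were Sec61a1, the translocon pore, at 0.20 and Dnajb9, a cochaperone, at -0.19. None of these passed, so Fkbp11 probe 15021 had no tested partner that did.

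The Wnt list around Ndp had 12 and 10 of 18 genes above 0 in C57 and A/J, with medians of 0.04 and 0.00. In C57 the receptor Fzd1 was highest at 0.22 and Porcn, the acyltransferase that prepares Wnt ligands, lowest at -0.10. In A/J the inhibitor Dkk1 was highest at 0.30 and the transcription factor Tcf7l1 lowest at -0.29. Of the chondroitin and dermatan sulfate list around Csgalnact2, 8 and 9 of 12 genes were above 0, with medians of 0.05 and 0.03. Chpf, the chondroitin polymerising factor, was highest in C57 at 0.29 and Ugdh, which makes the glucuronate donor, lowest at -0.14. In A/J the core protein Vcan was highest at 0.12 and the core protein Dcn lowest at -0.19.

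Voltage-gated potassium channels and their partners, around Kcnd2, had 7 and 5 of 12 genes above 0 in C57 and A/J, with medians of 0.01 and -0.01. Kcnip3, a channel-interacting protein, was highest in both, at 0.10 and 0.07, and Kcne1 lowest in both, at -0.27 and -0.11. Pyrimidine metabolism around Cda had 9 and 7 of 18 above 0, with medians of 0.01 and -0.01. Slc28a2, a nucleoside transporter, was highest in C57 at 0.14 and Dut, the dUTPase, lowest at -0.14, while in A/J these were Nt5c at 0.13 and Cmpk2 at -0.39. Protein phosphatase 2A around Ppp2r2d had 5 and 4 of 12 above 0, with medians of -0.01 and -0.02. Its catalytic subunit gene Ppp2cb was highest in both, at 0.23 and 0.16, and lowest were Ppp2r3c at -0.24 in C57 and Strn4 at -0.15 in A/J. The medians of the 6 lists thus lay between -0.02 and 0.05 in both strains.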

How the data were processed

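The deposited values are ratios of liver over the pool on a linear scale, and the mean ratio of every array is 1 as read from the values; the image analysis and normalization behind them are not given in the sources used here. Per the labels, liver RNA carried Cy5 and the pool Cy3 on every array, with no dye swap. Signal intensity is unknown, and precision is limited by how many arrays there are.

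The members and gene lists were chosen with earlier results of these data known. Positive ratios were turned into log2 without a pseudocount, and the 0.251% of measured values below 0 and the 0.271% equal to 0 were treated as not measured. Identical columns in 2 pairs of A/J high-fat arrays were counted once, which left 433 arrays. Probes had to be measured on 70% of arrays or more and on 3 or more in each group, which left 7195. Each array was centred on its median over these probes. The 36 group means of 350 arrays were fitted with limma 3.58.1 (R 4.3.3), with week and the 4 combinations of strain and diet as terms, and lines were fitted through the 9 weekly means of a group. Week 0 and single weeks were fitted on single arrays, centred over the probes tested there, so those fitted differences can depart slightly from the group values. Adjusted p-values are Benjamini-Hochberg over all probes of a fit, with a threshold of 0.05. All 8 probes are named, with the 3 probes most like each gene and the highest and lowest gene of each list. Alternatives were other centring, filters, replicate units, arrays and left-out weeks. Gene symbols come from the platform annotation, updated through RefSeq GRCm38.p6.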

Additional observations from a re-analysis of the deposited data

Results flagged for a closer look

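Single values stood apart from the rest of their group by the Dixon criterion in 29 of 307 groups of arrays and in 2 of 32 sets of weekly means, where chance gives about 1 in 20 groups. The weekly means were Kcnd2 in A/J low-fat livers, lowest at week 1 with -0.85, and Csgalnact2 in A/J low-fat livers, highest at week 6 with 0.88.

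Ndp had single arrays far below the rest in A/J high-fat at week 9 (-0.21), in A/J low-fat at week 3 (-1.36) and in C57 low-fat at week 10 (-2.95), and far above in C57 low-fat at week 3 (1.498). Fkbp11 probe 15021 had a high array in A/J high-fat at week 4 (2.57). Fkbp11 probe 9006 had a high array in the same group (0.85) and low arrays in A/J low-fat at week 3 (-0.66) and C57 low-fat at week 9 (-1.18). Cda had high arrays at week 5 in A/J high-fat (2.26) and A/J low-fat (2.53), and in C57 high-fat at week 1 (1.501). Kcnd2 had low arrays in A/J high-fat at week 10 (-0.84), A/J low-fat at week 6 (-2.40), C57 high-fat at week 4 (-1.21) and C57 low-fat at week 10 (-1.67), and a high array in A/J low-fat at week 9 (0.78).

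Tmem238l had a high array in A/J low-fat at week 4 (2.82) and a low array in C57 high-fat at week 5 (1.02). Csgalnact2 had low arrays in A/J high-fat at week 11 (-1.71) and in C57 low-fat at weeks 1 (-0.64), 3 (-0.40) and 4 (-1.49), and high arrays in A/J low-fat at weeks 3 (2.85) and 11 (0.81). Ppp2r2d had high arrays in A/J low-fat at week 4 (1.27) and C57 low-fat at week 5 (1.35), and low arrays in A/J low-fat at week 6 (-1.83), C57 high-fat at week 7 (-0.38) and C57 low-fat at week 10 (-1.07). The C57 low-fat array of week 10 that was low for Ndp was also the low one for Kcnd2, while that of Ppp2r2d was another.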

How the results depend on the processing

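Of 276 tested values of single probes under alternatives, 261 kept their direction and their side of the threshold. The 144 C57 values of the 8 probes were held to direction and size only, without a test: in every setting the 7 higher probes stayed above 0, and 1 value, Tmem238l with all 10 weeks and all arrays (0.18), moved by more than its SD over weeks. Ndp and Kcnd2 in A/J passed with single arrays as replicates (0.40 and 0.35), and Ndp without week 5 (0.50), its only A/J week with high-fat lower. The limit on single arrays given above for Ndp holds here too. The 17 C57 calls (12 of them higher) became 122 with single arrays as replicates, 7 with a stricter filter, 2 with all 10 weeks and all arrays, 6 with C57 alone and 6 to 20 with a week left out (9 without week 1, 6 without week 5, 9 without week 9). The higher calls numbered 1 with all 10 weeks, 5 with C57 alone and 4 without week 5, so not all of the 7 higher probes can have kept the call there. The 2 A/J calls became 4 after quantile normalization, 1 with group medians, 16 with single arrays, 0 with a stricter filter, 0 with all 10 weeks, and 0 to 2 without a week (0 without week 1, 4, 6 or 11, and 1 without week 5, 9 or 10). The stricter filter and all 10 weeks test fewer probes, 3146 and 2711. All 10 weeks also bring back week 8 and the other arrays left out. The cause of these changes was not tested for any setting. Signs turned in A/J for Tmem238l with group medians (-0.017), for Ppp2r2d without a week (-0.030 to 0.045) and for Fkbp11 probe 9006 without a week (-0.077 to 0.17). At week 0 in C57 they turned after quantile normalization for Ndp (0.059), Tmem238l (-0.025) and Ppp2r2d (-0.16), with consecutive arrays averaged for Cda (-0.0048), and in the strain difference after quantile normalization for Kcnd2 (-0.038).

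At week 0 the sample numbers did not pair the arrays of the 2 diets: same-numbered arrays correlated over 0.1 in 2 of 10 C57 pairs and 1 of 9 A/J pairs, with medians of -0.00 and -0.04. With the replicate number as a block, calls went to 1 in C57 and 2 in A/J from 0, and Cda (-0.20) and Ppp2r2d (-0.24) in C57 turned sign; no gene described here passed. Single-week A/J counts moved at week 3 to 1 and at week 4 to 37 after quantile normalization, at week 4 to 1 and at week 11 to 2 with consecutive arrays averaged, at week 6 to 1 without centring and 3 with a stricter filter, at week 9 to 0 with quantile normalization or a stricter filter, and at week 11 to 0 with a stricter filter. Trend counts moved in A/J high-fat from 2 to 1 with group medians, in A/J low-fat from 0 to 1 without centring and 39 after quantile normalization, in C57 high-fat from 59 to 110 without centring and 23 with group medians, and in C57 low-fat from 0 to 10 without centring and 5 after quantile normalization. Without a week the trend counts ran from 1 to 73 (A/J high-fat), 0 to 2 (A/J low-fat), 0 to 436 (C57 high-fat) and stayed at 0 in C57 low-fat, with 436 and 73 both without week 5; Kcnd2 passed in none of these.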
